A study of Homo sapiens with 6 samples.

Results

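The genes described here are 49 genes of DNA replication and S phase, taken by name from a list that runs from the licensing of replication origins through the helicase, the polymerases and the supply of nucleotides to cyclin E and the E2F transcription factors. All 49 were found among the 31122 gene symbols of the count table, all 49 passed the filter on low counts, and the lowest count of any of them in any library was 418. They were followed in 6 RNA-seq libraries of MDA-MB-468, a human breast cancer line without estrogen, progesterone or HER2 receptors that is widely grown in culture. The 3 libraries labelled GPR52 KO are described as coming from cell populations edited by CRISPR-Cas9 with the guide sgRNA1, which targets the orphan receptor gene GPR52, and the series text reports indels seen by Sanger sequencing. The 3 libraries labelled WT, here parental, are described as unedited cells in wells of 1 plate. The labels give no treatment, synchronisation or cell density and state neither clonal nor pooled origin for the edited cells. No library with a non-targeting guide was analysed here, so editing, selection and time in culture cannot be told apart from the label.

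Replication begins when the origin recognition complex (ORC), CDC6 and CDT1 load the MCM2-7 helicase onto DNA before S phase, a step that geminin (GMNN) blocks once it is done. CDC45 and the GINS complex then turn MCM2-7 into the active helicase, primase and polymerase alpha start each strand, and polymerases delta and epsilon extend it with the sliding clamp PCNA and its loader RFC. Many of these genes are transcribed at the G1/S boundary by E2F factors, which the retinoblastoma protein RB1 restrains until cyclin-dependent kinases, among them the one bound by cyclin E, release them.

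The labels and the cell line were checked on the same libraries. The GPR52 transcript had 645, 694 and 724 counts in the libraries labelled GPR52 KO, against 9, 1 and 0 counts in those labelled parental, so the transcript was more abundant under the KO label. What indels did to the protein was not measured. For this reason each library is named by its label, as KO-labelled or parental-labelled, and "higher" and "lower" say only how the KO-labelled libraries stood to the parental-labelled ones. Whether labels were exchanged was not tested, and an exchange would turn every direction given here. MDA-MB-468 is known for loss of RB1 and SMAD4, and RB1 was at 1.36, 1.49 and 1.71 CPM (counts scaled to a common library size with TMM factors) in KO-labelled libraries, against 1.16, 1.31 and 1.35 CPM in parental-labelled libraries. SMAD4 was under 1 CPM in all 6 libraries, whereas EGFR, which the line carries at high level, lay between 4560 and 8307 CPM. Of 8 listed markers of blood, endothelial, stromal and liver cells, COL1A1 was the exception with 620, 720 and 773 counts in KO-labelled against 221, 162 and 255 counts in parental-labelled libraries. The other 7 summed to between 12 and 28 counts per library.

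The test placed 9 of the 49 replication genes higher and 7 lower under the KO label and called no change for 33, at an adjusted p under 0.05 in the edgeR quasi-likelihood test. That is 32.7% called, where the same test called 40.8% of all 17420 genes tested, 21.0% as higher and 19.8% as lower. The share of replication genes called was no larger than that of genes in general. Of genes at least as abundant as the least abundant replication gene, 46.5% were called. Single libraries moved these counts, to 16 higher and 14 lower without KO-labelled 3, where 52.6% of all genes tested were called. Without parental-labelled 1, 2 and 3 in turn, 5, 4 and 5 were higher and 5, 5 and 6 lower. All genes moved too, with 27.7%, 27.3% and 29.6% of them called in those 3 tests. The median log2 fold change of the 49 genes was 0.04, beside 0.01 for all tested genes. Regardless of direction, their median size of change was 0.17, beside 0.32 for all tested genes. It was 0.26 for the 8909 genes at least as abundant as the least abundant replication gene. Only POLA1 changed by more than 2-fold, 2.04% of the 49 against 12.7% of all tested genes and 5.19% of the genes of at least that abundance. The groups did not overlap for 24 of the 49 genes, 49.0% against 54.4% of all tested genes. For the genes of at least that abundance this share was 60.4%. All 16 called genes were among the 24.

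The total amount of these transcripts was nearly the same in both groups. Summed over the 49 genes, it was 5797, 5936 and 5552 CPM in KO-labelled libraries, against 5811, 5802 and 5881 CPM in parental-labelled libraries. The means were 5762 ± 194 CPM in KO-labelled and 5831 ± 43.0 CPM in parental-labelled libraries (SD, n = 3 each), and the groups overlapped. Within that total, the licensing genes summed to 1666, 1509 and 1707 CPM in KO-labelled libraries, against 1849, 1835 and 1879 CPM in parental-labelled libraries. Every KO-labelled sum lay below every parental-labelled sum. Among the licensing genes, the largest falls in mean CPM were in the 3 called lower. From parental-labelled to KO-labelled libraries, MCM3 went from 362 to 260, MCM6 from 253 to 172 and GMNN from 136 to 95.0 CPM. The sum of the 4 nucleotide supply genes, whose largest contributor RRM2 was not called on its own, was 1364, 1664 and 1319 CPM in KO-labelled libraries against 1168, 1173 and 1178 CPM in parental-labelled libraries, higher and without overlap. The sum of the cyclin E and E2F genes was 502, 451 and 421 CPM in KO-labelled libraries, against 515, 521 and 521 CPM in parental-labelled libraries, lower and without overlap. No test was run on these sums. Among single genes, the groups did not overlap for 54.4% of all tested. The share was 60.4% among genes at least as abundant as the least abundant replication gene. The sums of the DNA synthesis genes (1852 to 2046 CPM in KO-labelled, 2025 to 2063 CPM in parental-labelled libraries) and of CDC45 with GINS (238 to 266 CPM and 240 to 247 CPM) overlapped. In bulk RNA, a different share of cells in S phase and a different amount of RNA per cell cannot be told apart.

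**Figure D1:**
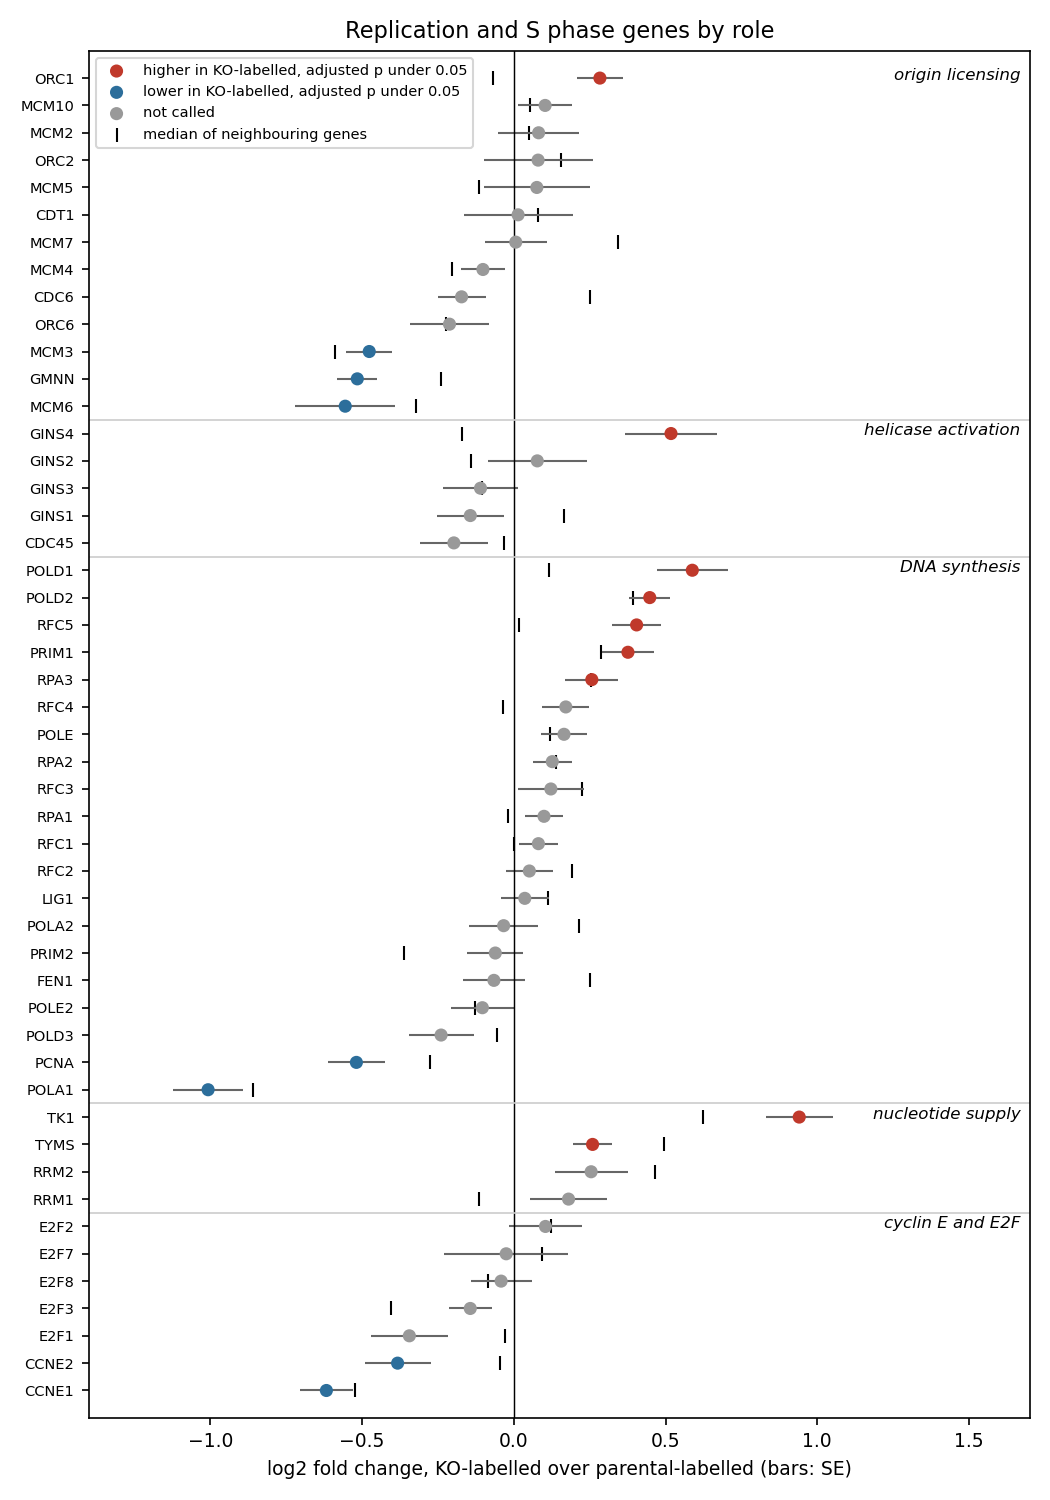
Log2 fold changes of the 49 genes (points, horizontal axis, with SE as bars), KO-labelled over parental-labelled libraries, grouped by role from origin licensing at the top to cyclin E and E2F genes at the bottom. Red points are the 9 genes called higher, blue points the 7 called lower and grey points the 33 not called, and a black tick gives the median log2 fold change of each gene's chromosomal neighbours. All called genes but POLA1, at -1.01, lie within 1 log2 unit of 0.

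Origin licensing held 1 higher and 3 lower genes of 13, with 9 not called. That is 30.8% called, against 40.8% of all tested genes. The largest fall by value was in MCM6, a subunit of the MCM2-7 helicase ring, which had 162, 133 and 223 CPM in KO-labelled libraries, against 259.6, 249 and 251 CPM in parental-labelled libraries. Its log2 fold change was -0.56 (SE 0.17, edgeR adjusted p = 0.0287), and KO-labelled 3 stood much closer to the parental-labelled libraries than KO-labelled 1 and 2 did. Leaving out any library other than KO-labelled 3 ended this call. The ring subunit MCM3 had 280.1, 236 and 266 CPM in KO-labelled libraries, against 366, 359 and 362 CPM in parental-labelled libraries. For MCM3 the log2 fold change was -0.48 (SE 0.08, edgeR adjusted p = 0.00181), and the groups lay well apart. Geminin (GMNN), the inhibitor of CDT1, had 96.8, 90.1 and 98.0 CPM in KO-labelled libraries, against 136, 133 and 139 CPM in parental-labelled libraries. The log2 fold change of GMNN was -0.52 (SE 0.07, edgeR adjusted p = 5.83e-04), and its 3 values in each group lay close together.

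ORC1, the ORC subunit that is turned over during the cell cycle in human cells, was the licensing gene that rose. It had 71.9, 67.3 and 77.1 CPM in KO-labelled libraries, against 60.4, 57.6 and 59.6 CPM in parental-labelled libraries, a log2 fold change of 0.28 (SE 0.08, edgeR adjusted p = 0.0180). The call was lost when any of the parental-labelled libraries was left out. The loading factors CDC6 and CDT1 were not called. CDC6 had 80.7, 82.0 and 94.4 CPM in KO-labelled against 98.6, 96.4 and 94.6 CPM in parental-labelled libraries, close but without overlap (log2 fold change -0.17, SE 0.08, edgeR adjusted p = 0.119). CDT1 had 46.4, 42.9 and 67.2 CPM in KO-labelled and 44.6, 50.4 and 60.0 CPM in parental-labelled libraries, fully overlapping. The ring subunits MCM2, MCM4, MCM5 and MCM7, MCM10, which helps to activate the loaded helicase, and the ORC subunits ORC2 and ORC6 had log2 fold changes between -0.21 and 0.10 and were not called. Of the ORC subunits outside the 49 genes, ORC3 and ORC4 were lower, both at -0.45 (SE 0.11 and 0.14, edgeR adjusted p = 0.0151 and 0.0367), and ORC5 was not called at -0.05 (SE 0.09).

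The 6 subunits of the MCM2-7 ring, which assemble in equal numbers, did not change alike by value. Their log2 fold changes spanned 0.64, from MCM6 at -0.56 to MCM2 at 0.08, with MCM3 and MCM6 called lower and the other 4 not called. The difference between subunits was not tested. Per length, their mean levels differed 4.79-fold between the highest and lowest subunit in KO-labelled and 5.55-fold in parental-labelled libraries, from MCM2 at 25.9 FPKM to MCM4 at 124 FPKM in KO-labelled and from MCM2 at 22.9 FPKM to MCM4 at 127 FPKM in parental-labelled libraries (FPKM, the authors' values scaled to transcript length and library size).

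Among CDC45 and the 4 GINS genes, which complete the active helicase, 1 rose and 4 were not called. Called genes made up 20%, against 40.8% of all tested genes. GINS4 had 79.2, 86.8 and 55.2 CPM in KO-labelled libraries, against 51.4, 51.8 and 51.3 CPM in parental-labelled libraries. KO-labelled 3 was near the parental-labelled level, and the log2 fold change of 0.52 (SE 0.15, edgeR adjusted p = 0.0269) lost its call without KO-labelled 1 or 2 and without any of the parental-labelled libraries. CDC45 had 47.6, 57.4 and 65.6 CPM in KO-labelled libraries, against 66.6, 64.2 and 64.8 CPM in parental-labelled libraries, and overlapped through KO-labelled 3 (log2 fold change -0.20, SE 0.11, edgeR adjusted p = 0.198). GINS1, GINS2 and GINS3 had log2 fold changes of -0.14, 0.08 and -0.11.

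The 20 genes of DNA synthesis held 5 higher and 2 lower genes, with 13 not called. The share called was 35%, against 40.8% of all tested genes. POLA1, the catalytic subunit of polymerase alpha, fell furthest of the 49 genes. It had 64.8, 62.8 and 47.9 CPM in KO-labelled libraries, against 122, 117 and 114 CPM in parental-labelled libraries, a log2 fold change of -1.01 (SE 0.11, edgeR adjusted p = 3.45e-04). No KO-labelled library came near the parental-labelled range. The other subunits of the same enzyme did not follow it by value. The primase subunit PRIM1 rose, with 34.6, 39.5 and 35.1 CPM in KO-labelled libraries, against 29.4, 27.9 and 26.8 CPM in parental-labelled libraries (log2 fold change 0.38, SE 0.09, edgeR adjusted p = 0.00965), a call lost without parental-labelled 2. The accessory subunit POLA2 was at -0.03 (SE 0.11) and the primase subunit PRIM2 at -0.06 (SE 0.09), both not called.

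PCNA, the sliding clamp that holds polymerases on DNA, was the other synthesis gene that fell. It had 356, 314 and 276 CPM in KO-labelled libraries, against 447, 440.2 and 467 CPM in parental-labelled libraries, with a log2 fold change of -0.52 (SE 0.09, edgeR adjusted p = 0.00337) and no overlap. Of the 5 genes of its loader, only RFC5 was called. RFC5 rose, with 48.9, 54.8 and 47.1 CPM in KO-labelled libraries, against 38.4, 37.5 and 37.9 CPM in parental-labelled libraries (log2 fold change 0.40, SE 0.08, edgeR adjusted p = 0.00533). RFC1 to RFC4 had positive log2 fold changes of 0.05 to 0.17 that were not called.

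Polymerase delta, which copies mainly the lagging strand, had 2 of its 3 subunit genes among the 49 higher. Its catalytic subunit gene POLD1 had 67.3, 74.3 and 77.6 CPM in KO-labelled libraries, against 43.6, 44.9 and 57.3 CPM in parental-labelled libraries. Parental-labelled 3 stood above the other libraries of its group but below every KO-labelled library, and the log2 fold change was 0.59 (SE 0.12, edgeR adjusted p = 0.00511). The accessory subunit gene POLD2 had 167, 175 and 187 CPM in KO-labelled libraries, against 127, 127 and 134 CPM in parental-labelled libraries (log2 fold change 0.45, SE 0.07, edgeR adjusted p = 0.00143). Both genes were well apart between the groups, while POLD3 was at -0.24 (SE 0.11) and not called. The remaining subunit gene, POLD4, lies outside the 49 and was not called at -0.04 (SE 0.23). For polymerase epsilon, which copies mainly the leading strand, the catalytic subunit POLE was at 0.17 (SE 0.07) and POLE2 at -0.10 (SE 0.10), and neither was called. Of its small subunit genes outside the 49, POLE4 rose at 0.42 (SE 0.10, edgeR adjusted p = 0.00964) and POLE3 was not called at 0.18 (SE 0.08).

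The single-strand binding protein RPA, the flap nuclease FEN1 and the ligase LIG1 moved little by value. RPA3, the smallest RPA subunit, had 43.0, 42.7 and 36.8 CPM in KO-labelled libraries, against 32.9, 34.4 and 35.2 CPM in parental-labelled libraries. Its log2 fold change of 0.26 (SE 0.09, edgeR adjusted p = 0.0464) was the weakest call of the 16, was lost in the DESeq2 test (adjusted p 0.0536), without a filter on low counts and when KO-labelled 1 or 2 or any of the parental-labelled libraries was left out. RPA1 and RPA2 were at 0.10 and 0.13, FEN1 at -0.07 and LIG1 at 0.04, all not called.

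**Figure D2:**
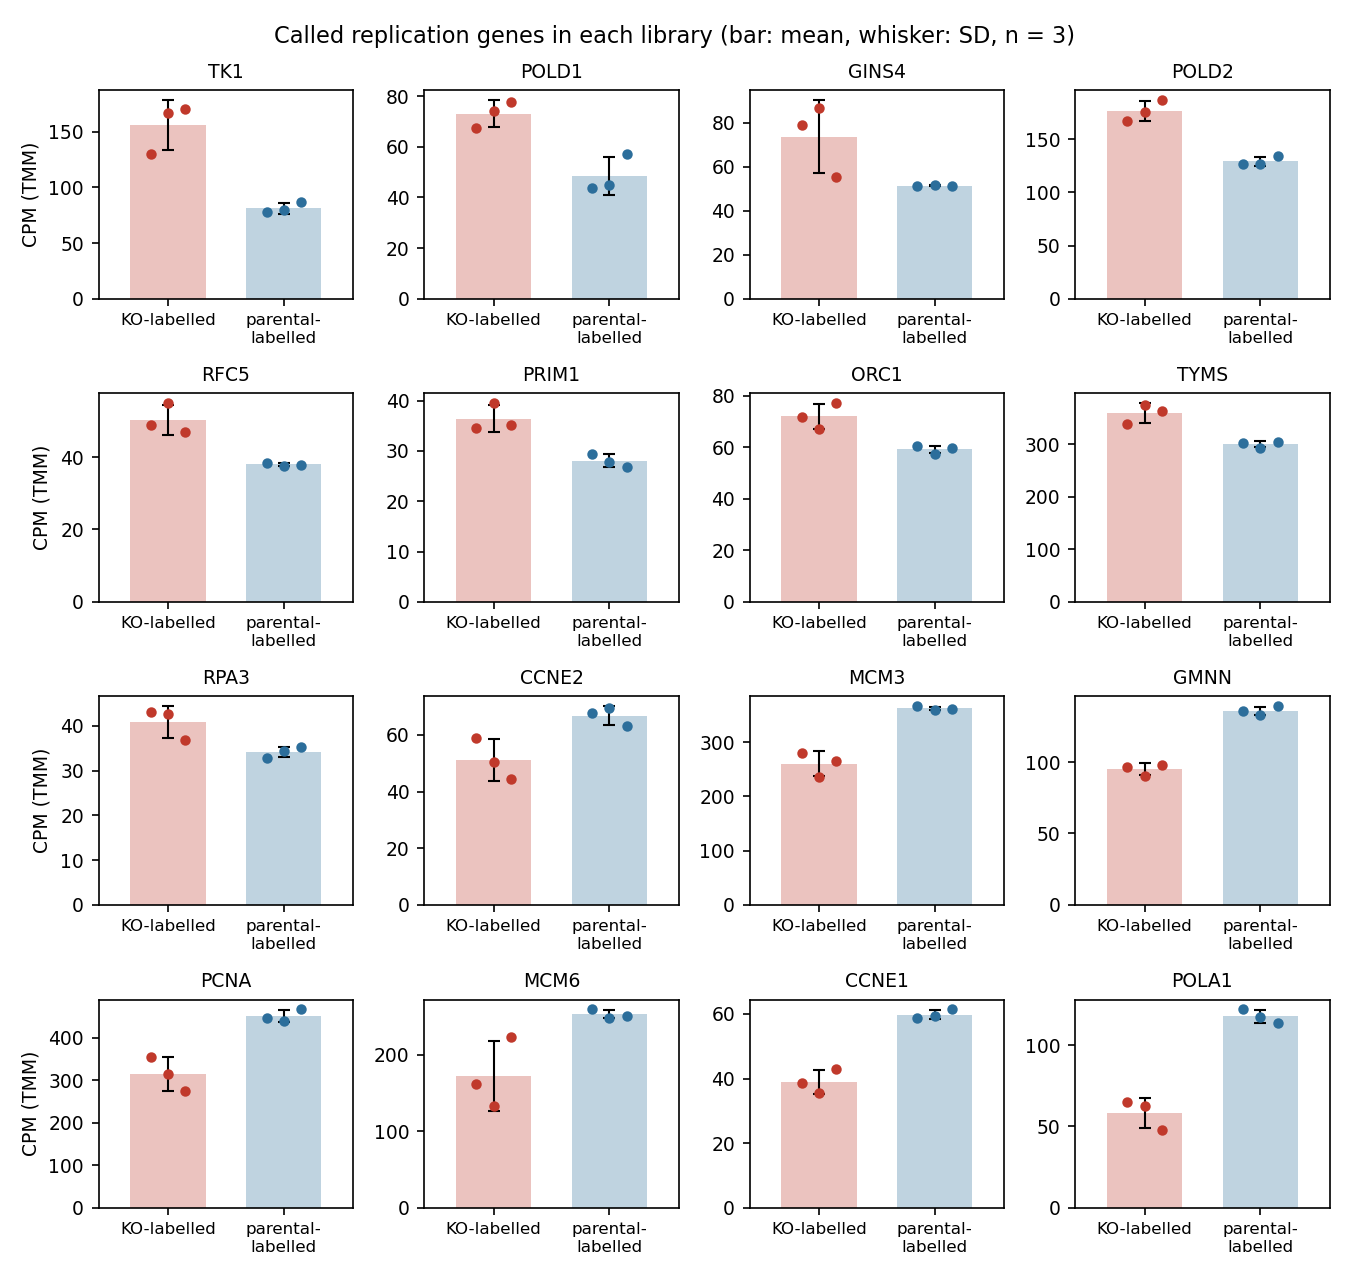
CPM (vertical axis, starting at 0) of the 16 called genes in each library, KO-labelled on the left and parental-labelled on the right of each panel, ordered from the largest rise to the largest fall. Points are libraries, bars the group means and whiskers the SD (n = 3). The groups do not overlap in any panel, which holds for all 16 called genes, and KO-labelled points spread more widely than parental-labelled ones in panels such as GINS4 and MCM6.

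Of the 4 genes of nucleotide supply, 2 rose and 2 were not called, 50% called against 40.8% of all tested genes. TK1, the cytosolic thymidine kinase of the salvage pathway, rose most of the 49 genes. It had 130.4, 167 and 171 CPM in KO-labelled libraries, against 77.6, 79.4 and 86.7 CPM in parental-labelled libraries, a log2 fold change of 0.94 (SE 0.11, edgeR adjusted p = 3.99e-04). Even the lowest KO-labelled library was far above the parental-labelled range. TYMS, the thymidylate synthase that makes dTMP from dUMP, had 338, 374 and 364 CPM in KO-labelled libraries, against 303, 293 and 304 CPM in parental-labelled libraries. The rise was smaller (log2 fold change 0.26, SE 0.06, edgeR adjusted p = 0.0136) and lost its call without any of the parental-labelled libraries.

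The ribonucleotide reductase genes were not called, and their KO-labelled libraries disagreed. The small subunit gene RRM2 had 690.2, 881 and 619.8 CPM in KO-labelled libraries, against 604, 621 and 612 CPM in parental-labelled libraries (log2 fold change 0.25, SE 0.12, edgeR adjusted p = 0.127). The large subunit gene RRM1 had 205, 242 and 164 CPM in KO-labelled libraries, against 184, 180.1 and 176 CPM in parental-labelled libraries (log2 fold change 0.18, SE 0.13, edgeR adjusted p = 0.292). In both genes KO-labelled 2 was highest and KO-labelled 3 was lowest of its group. Without KO-labelled 3 both were called higher, RRM2 at 0.36 and RRM1 at 0.31.

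Of the 7 cyclin E and E2F genes among the 49, 2 were lower and none higher. The share called was 28.6%, against 40.8% of all tested genes. Cyclin E1 (CCNE1), which activates CDK2 at the G1/S boundary, had 38.5, 35.5 and 43.0 CPM in KO-labelled libraries, against 58.6, 59.5 and 61.4 CPM in parental-labelled libraries. Its log2 fold change was -0.62 (SE 0.09, edgeR adjusted p = 9.58e-04), with a wide gap between the groups. Cyclin E2 (CCNE2) had 59.0, 50.4 and 44.4 CPM in KO-labelled libraries, against 67.7, 69.6 and 63.1 CPM in parental-labelled libraries (log2 fold change -0.38, SE 0.11, edgeR adjusted p = 0.0236). The CCNE2 call was lost without KO-labelled 2, without parental-labelled 1 or 2, and in the limma tests on FPKM.

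None of the 5 E2F genes among the 49 was called. Of the E2F genes outside them, E2F6 and E2F4 rose, at 0.99 and 0.20, and E2F5 was not called. The activator E2F1 came closest, with 95.3, 66.8 and 82.9 CPM in KO-labelled libraries, against 97.5, 102 and 112 CPM in parental-labelled libraries. The groups did not overlap, and the log2 fold change of -0.34 (SE 0.13) had an edgeR adjusted p of 0.0607. It was called lower by DESeq2 (adjusted p = 0.042) and without KO-labelled 1 or 3. The activators E2F2 and E2F3 were at 0.10 (SE 0.12) and -0.14 (SE 0.07). The atypical repressors E2F7 and E2F8 were at -0.02 (SE 0.21) and -0.04 (SE 0.10), and E2F7 had 40.9, 34.3 and 21.5 CPM in KO-labelled libraries, against 34.3, 34.0 and 30.2 CPM in parental-labelled libraries.

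The KO-labelled libraries differed among themselves more than the parental-labelled ones. The SD of log2 CPM was larger in the KO-labelled group for 44 of the 49 genes (89.8%, against 76.3% of all tested genes), with a median of 0.18 in KO-labelled and 0.04 in parental-labelled libraries. For all tested genes the medians were 0.19 and 0.09. Among the 8909 genes at least as abundant, they were 0.13 in KO-labelled and 0.05 in parental-labelled libraries, and 82.2% had the larger SD in the KO-labelled group. KO-labelled 3 often stood on the other side of the parental-labelled libraries from KO-labelled 1 and 2. It lay above all parental-labelled libraries while KO-labelled 1 and 2 lay below them for 5 genes (MCM5, ORC2, ORC6, GINS2 and GINS3), and the reverse held for 6 genes (MCM2, MCM7, RFC3, RRM1, E2F2 and E2F7). Together these were 22.4% of the 49 genes, against 7.69% of all tested genes, a difference that was not tested. The share was not computed among genes of matching abundance. The parental-labelled range, which a library must leave to be counted, was narrower for the 49 genes by median SD than for all tested genes.

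MCM5 shows this split, with 108 and 105 CPM in KO-labelled 1 and 2 and 169 CPM in KO-labelled 3, against 113, 119 and 129.6 CPM in parental-labelled libraries. MCM2 shows the opposite order, with 113 and 103 CPM in KO-labelled 1 and 2 and 76.8 CPM in KO-labelled 3, against 90.2, 91.2 and 95.6 CPM in parental-labelled libraries. Neither gene was called with all 6 libraries. Without KO-labelled 3, 16 of the 49 genes were higher and 14 lower, where 52.6% of all genes tested were called. Then MCM2 was called higher at 0.23 and MCM5 lower at -0.18, while MCM6 was at -0.79.

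**Figure D3:**
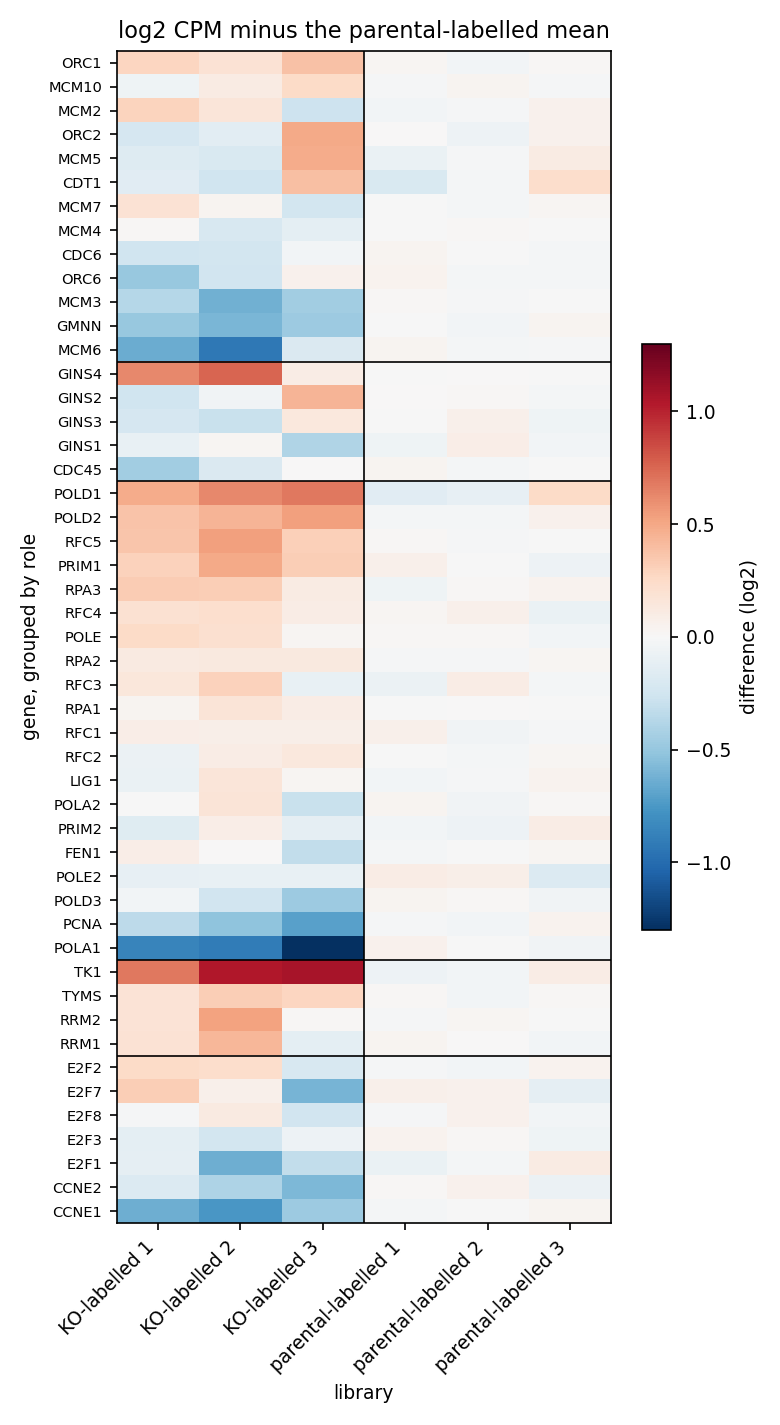
Difference of log2 CPM from the mean of the parental-labelled libraries (colour, red higher and blue lower) for the 49 genes (rows, grouped by role) in the 6 libraries (columns, KO-labelled on the left). Rows such as POLA1 and TK1 have the same colour in all 3 KO-labelled columns, whereas MCM5, ORC2, GINS2, MCM2 and E2F7 change colour at KO-labelled 3.

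Levels between genes were compared per length, on the FPKM scale. The 49 genes spanned 5.77 to 334 FPKM in KO-labelled libraries with a median of 28.8, and 5.14 to 302 FPKM in parental-labelled libraries with a median of 30.6. RRM2 was the highest in KO-labelled libraries, at 334 ± 67.1 FPKM, and PCNA in parental-labelled libraries, at 302 ± 13.7 FPKM (SD, n = 3 each). TYMS was at 264 ± 12.8 FPKM in KO-labelled and 213 ± 5.51 FPKM in parental-labelled libraries, and PCNA at 218 ± 28.4 FPKM in KO-labelled libraries. RRM2 stood above TYMS and TYMS above PCNA in all 3 KO-labelled libraries, whereas the order was PCNA, RRM2 and TYMS in all 3 parental-labelled libraries. Further down, neighbours in the order were often closer than their SD, as MCM7 and MCM3 at 109 and 107 FPKM in parental-labelled libraries. E2F7 was lowest in both groups, at 5.77 FPKM in KO-labelled and 5.14 FPKM in parental-labelled libraries. TK1 held rank 7 in KO-labelled and rank 15 in parental-labelled libraries, at 91.9 ± 11.6 FPKM in KO-labelled and 45.1 ± 4.43 FPKM in parental-labelled libraries (SD, n = 3 each).

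**Figure D4:**
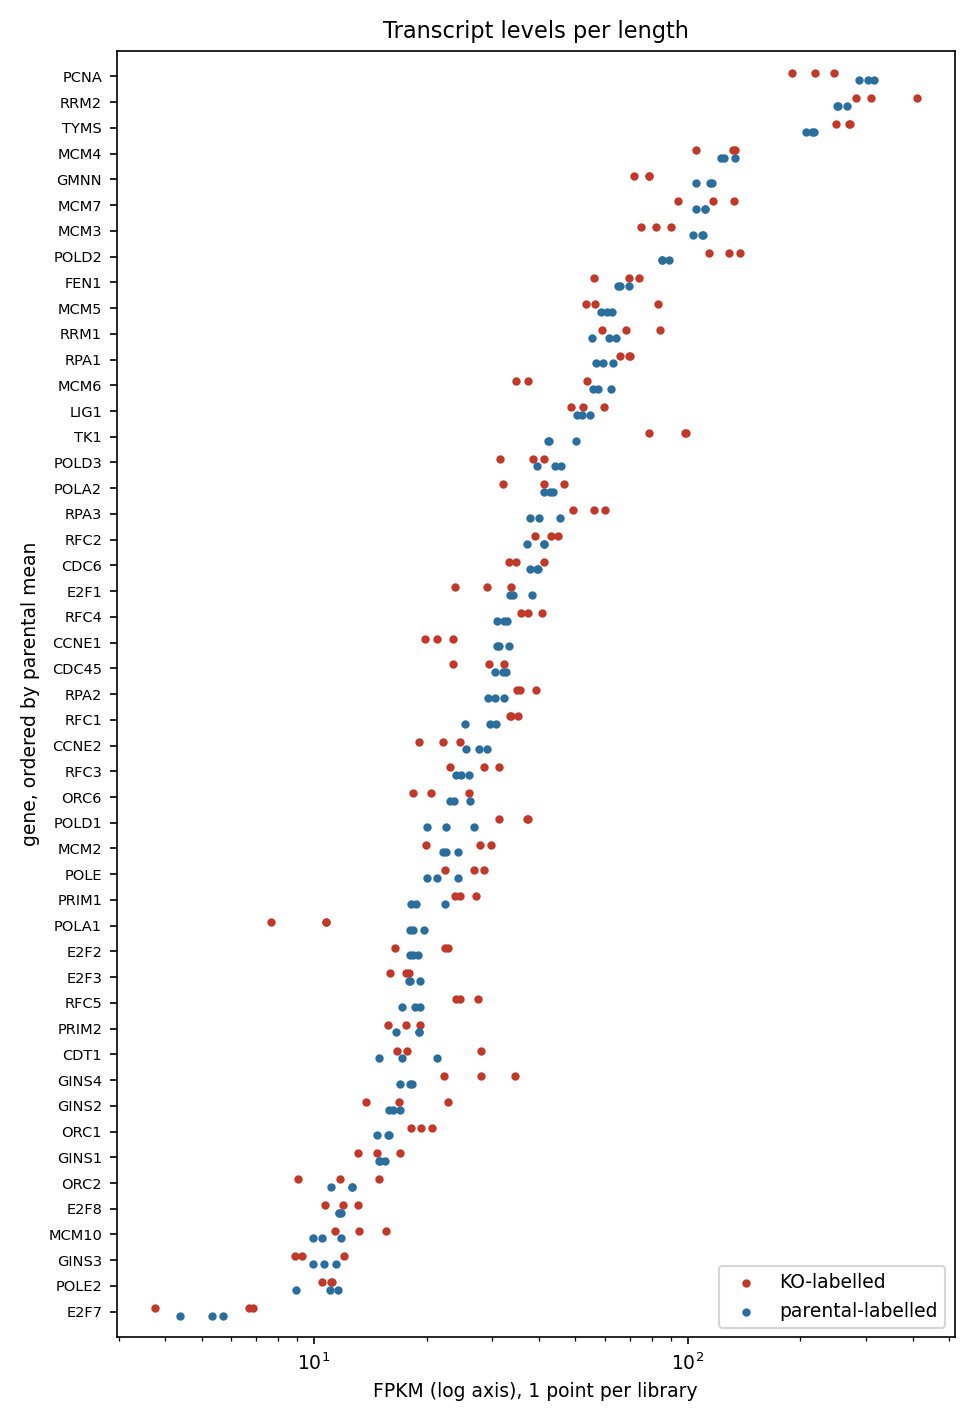
FPKM of the 49 genes (horizontal log axis, 1 point per library, red KO-labelled and blue parental-labelled), ordered by the parental-labelled mean with the highest at the top. PCNA, RRM2 and TYMS stand above the rest in both groups, E2F7 is lowest, and POLA1 and TK1 show the widest gaps between the colours.

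The position of each gene was set beside its change. For each gene, the median log2 fold change of the tested genes next to it in chromosome order was taken, up to 10 on each side. All 7 lower genes had a negative neighbour median and 7 of the 9 higher genes had a positive one. Across the 49 genes, the correlation of a gene's own change with its neighbour median was 0.72 (Pearson) and 0.58 (Spearman), as a description over genes measured in the same 6 libraries, some of which share neighbours. Neither the counts of matching signs nor the correlations were computed over all tested genes, so they do not set the replication genes apart. The neighbours of POLA1 on the X chromosome had a median of -0.86, beside -1.01 for the gene. Those of CCNE1 on chromosome 19 had a median of -0.52, beside -0.62 for the gene.

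The neighbour medians of MCM3 on chromosome 6 and TK1 on chromosome 17 were -0.59 and 0.62, beside -0.48 and 0.94 for the genes. TYMS on chromosome 18 rose less than its neighbours, with 0.26 beside 0.50. In contrast, ORC1 and GINS4 rose beside neighbours at -0.07 and -0.17, POLD1 and RFC5 beside neighbours at 0.11 and 0.02, and CCNE2 fell beside neighbours at -0.05. When each gene was tested relative to its neighbours, ORC1, GINS4, POLD1 and RFC5 stayed higher and GMNN and CCNE2 lower (edgeR adjusted p from 0.00801 to 0.0437). The calls of POLA1, TK1, CCNE1, PCNA, MCM3, MCM6, PRIM1, POLD2 and RPA3 were lost, with 0.32 for TK1 (adjusted p = 0.0563) and -0.15 for POLA1 (adjusted p = 0.345), and TYMS was called lower at -0.24 (adjusted p = 0.0232). Of the genes not called otherwise, CDC6 at -0.42 (adjusted p = 0.00490), MCM7 and FEN1 were then lower and PRIM2 and E2F3 higher. In the test relative to neighbours, 6 of the 49 genes were higher and 6 lower, where 35.8% of 14236 genes were called. The neighbour median, taken from the same 6 libraries, entered that test as a fixed number. Its own error is therefore left out of those p-values. Copy number was not measured, and its part in these changes was not tested.

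**Figure D5:**
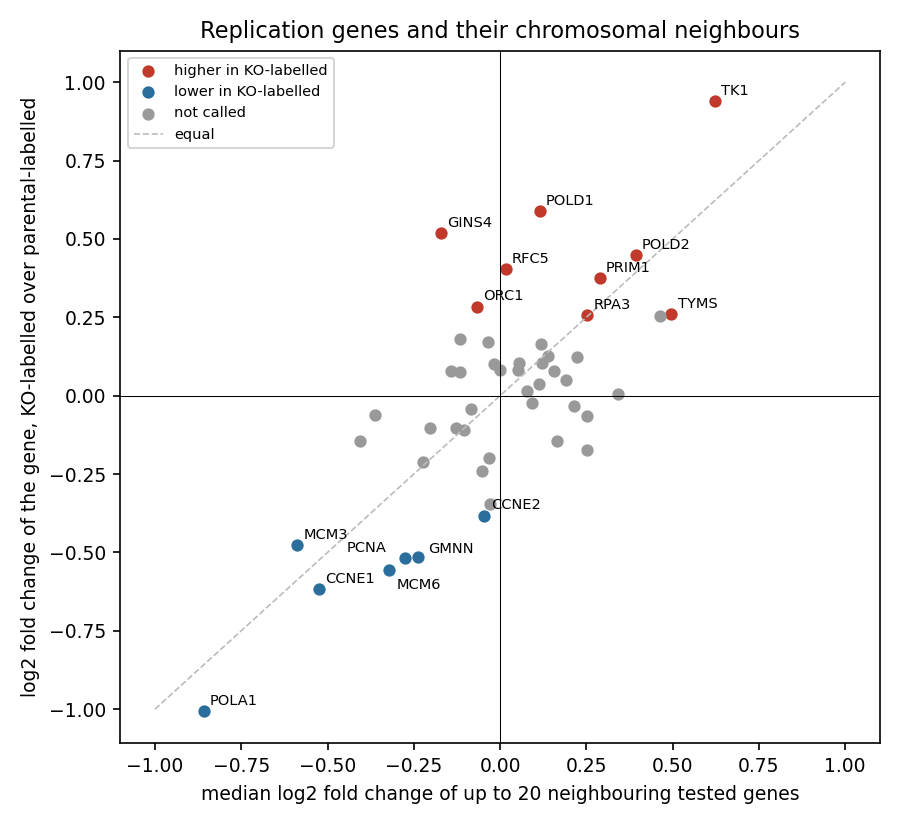
Log2 fold change of each of the 49 genes (vertical axis) against the median log2 fold change of its neighbouring tested genes (horizontal axis), with the 16 called genes named and a dashed line where both are equal. POLA1, CCNE1 and MCM3 at the lower left and TK1, POLD2 and PRIM1 at the upper right lie where their neighbours moved the same way, while GINS4 and ORC1 lie to the left of 0 with positive changes of their own.

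Promoter sequence was examined because E2F factors bind a known word upstream of many replication genes. RefSeq promoter windows (GRCh38.p14, 250 bases before to 50 after the start, first entry per gene) were matched for 41 of the 49 genes. The E2F words TTTCCCGC, TTTGGCGC and TTTCGCGC were searched on both strands, overlaps allowed. They were present in 20 of the 41 windows (48.8%), against 4.49% of the 10119 windows matched to tested genes and 2.79% of all 27305 windows. The NF-Y word CCAAT was present in 24 of 41 (58.5%), against 36.6% of windows of tested genes. The CHR word TTTGAA, known from G2 and mitosis genes, was present in 2 of 41 (4.88%), against 9.79%. By call, an E2F word was found in 1 of 7 matched genes that rose, 4 of 6 that fell and 15 of 28 that were not called, and the difference was not tested. A match is a run of letters and does not show binding.

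The windows of the called genes that hold an E2F word are printed below from the 250 bases before the start, 5′ to 3′ along the gene, with E2F and CCAAT words in capitals, followed by TK1 and CCNE1, the largest rise and largest fall among called genes whose printed bases hold none. They lie, on GRCh38.p14, at chrX:24693668-24693917 (plus strand), chr2:135876444-135876693 (minus strand), chr20:5126623-5126872 (minus strand), chr6:52284743-52284992 (minus strand), chr18:657403-657652 (plus strand), chr17:78187205-78187454 (minus strand) and chr19:29811741-29811990 (plus strand).
POLA1: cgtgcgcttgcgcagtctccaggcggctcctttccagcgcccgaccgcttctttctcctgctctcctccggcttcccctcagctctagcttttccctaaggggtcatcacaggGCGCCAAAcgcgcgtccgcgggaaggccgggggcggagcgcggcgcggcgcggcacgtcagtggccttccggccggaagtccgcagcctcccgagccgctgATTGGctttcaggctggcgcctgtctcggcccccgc
MCM6: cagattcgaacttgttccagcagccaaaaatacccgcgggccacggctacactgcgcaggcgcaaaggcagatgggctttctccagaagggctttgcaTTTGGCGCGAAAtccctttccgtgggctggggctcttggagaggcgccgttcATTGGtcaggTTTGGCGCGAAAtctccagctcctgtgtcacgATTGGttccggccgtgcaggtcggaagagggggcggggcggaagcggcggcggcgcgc
PCNA: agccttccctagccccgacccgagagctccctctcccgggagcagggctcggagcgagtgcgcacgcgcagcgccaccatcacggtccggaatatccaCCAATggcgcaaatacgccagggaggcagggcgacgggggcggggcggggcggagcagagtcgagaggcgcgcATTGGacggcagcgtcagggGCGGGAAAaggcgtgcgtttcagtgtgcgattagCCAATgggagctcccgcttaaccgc
MCM3: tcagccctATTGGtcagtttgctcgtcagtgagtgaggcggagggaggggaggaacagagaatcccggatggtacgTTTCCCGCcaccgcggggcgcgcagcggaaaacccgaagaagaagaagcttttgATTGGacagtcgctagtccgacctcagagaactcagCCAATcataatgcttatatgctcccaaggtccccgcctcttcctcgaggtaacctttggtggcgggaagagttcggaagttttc
TYMS: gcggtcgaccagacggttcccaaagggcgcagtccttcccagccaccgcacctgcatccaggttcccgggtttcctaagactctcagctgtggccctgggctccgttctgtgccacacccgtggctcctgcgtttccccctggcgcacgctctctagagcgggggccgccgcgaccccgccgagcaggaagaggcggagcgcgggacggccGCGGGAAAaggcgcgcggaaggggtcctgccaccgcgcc
TK1: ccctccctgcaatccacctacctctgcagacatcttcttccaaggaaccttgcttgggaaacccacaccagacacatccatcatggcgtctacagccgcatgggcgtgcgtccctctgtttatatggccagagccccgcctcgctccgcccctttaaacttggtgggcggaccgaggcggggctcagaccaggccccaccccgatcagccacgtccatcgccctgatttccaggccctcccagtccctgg
CCNE1: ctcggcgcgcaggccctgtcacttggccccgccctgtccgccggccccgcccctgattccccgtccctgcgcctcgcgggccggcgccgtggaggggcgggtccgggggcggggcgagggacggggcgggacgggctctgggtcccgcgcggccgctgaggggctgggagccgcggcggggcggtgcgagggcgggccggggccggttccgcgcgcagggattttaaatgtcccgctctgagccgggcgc
In MCM6 the word TTTGGCGC and the reverse complement of TTTCGCGC overlap in a pair of longer runs, with a CCAAT word on the other strand after each. POLA1 has its E2F word starting 137 bases before the start, PCNA 59 bases and TYMS 39 bases before it. Of these 5 genes with the word, POLA1, MCM6, PCNA and MCM3 fell and TYMS rose, the last with the limits given above for its call.

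Genes of the same processes outside the 49 were taken from lists of further origin and fork factors, nucleotide enzymes, cell cycle control and checkpoint genes. Of 97 tested, 22 were higher and 11 lower, 34.0% called against 40.8% of all tested genes, with a median log2 fold change of 0.10. Among the origin factors, TICRR, which brings CDC45 to the helicase, had a log2 fold change of 1.04 (SE 0.18), DBF4B, an activator of the kinase CDC7, 0.69 (SE 0.10), TOPBP1 0.31 (SE 0.08) and the MCM-binding protein MCMBP -0.40 (SE 0.07). In all, 6 of these 18 genes were higher and 4 lower, 55.6% called against 40.8% of all tested genes. Among fork and chromatin assembly factors 5 of 23 were higher and 1 lower, 26.1% called. The histone chaperone subunit CHAF1B was at -0.68 (SE 0.07) and UHRF1, which guides maintenance DNA methylation, at 0.48 (SE 0.08).

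Of 17 further nucleotide enzymes and transporters, 3 were higher and 2 lower, 29.4% called against 40.8% of all tested genes. CAD, which catalyses the first steps of pyrimidine synthesis, had 416, 379 and 358 CPM in KO-labelled libraries, against 188, 189 and 187 CPM in parental-labelled libraries (log2 fold change 1.03, SE 0.07, edgeR adjusted p = 3.87e-05). CTPS2, a CTP synthase on the X chromosome like POLA1, had a log2 fold change of -0.99 (SE 0.10) beside a neighbour median of -0.97. RRM2B, the p53-induced ribonucleotide reductase subunit, was at -0.71 (SE 0.10). Of 27 control genes 5 were higher and 4 lower, 33.3% called. Cyclin D1 (CCND1) had 96.5, 121 and 146 CPM in KO-labelled libraries, against 285, 302 and 292 CPM in parental-labelled libraries (log2 fold change -1.27, SE 0.14, edgeR adjusted p = 2.43e-04). SKP2 and FBXW7, the substrate receptors of ubiquitin ligases, the second of which marks cyclin E for degradation, stood at 0.73 (SE 0.09) and -0.66 (SE 0.08) on the log2 scale, and the repressor E2F6 had 0.99 (SE 0.09).

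Of 12 checkpoint genes 3 were higher and none lower, 25% called against 40.8% of all tested genes. ETAA1, an activator of the kinase ATR, was at 0.80 (SE 0.08) and HUS1, part of a checkpoint clamp, at 0.56 (SE 0.08). The named genes of these lists had adjusted p under 0.05 in the same edgeR test. For comparison, 5 of 18 mitosis genes were higher and none lower, 27.8% called against 40.8% of all tested genes. Their median log2 fold change was 0.34, beside 0.01 for all tested genes. Their summed level was 4316, 5773 and 3448 CPM in KO-labelled libraries, against 3632, 3546 and 3414 CPM in parental-labelled libraries. KO-labelled 2 was highest and KO-labelled 3 within the parental-labelled range. For the 49 replication genes KO-labelled 2 was also highest and KO-labelled 3 lowest in the summed level, as given above.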

How the data were processed

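Polyadenylated RNA of 6 MDA-MB-468 cultures was sequenced from directional libraries, per the labels' protocols. The authors deposited raw counts per gene symbol and FPKM values, 1 column per sample. Cufflinks 2.0.2, STAR 2.4.0f1 and SAMtools 0.1.19 appear with the hg19 build in the submitters' processing notes, which give them no role or order. Annotation, counting program, strand setting and filters: not given in the sources used here. Library totals were 25637794 to 31692454 counts, so 1 count was worth 0.0316 to 0.0390 CPM, and tested genes held 99.9% of the counts of the library where that share was lowest. If strand was ignored in counting, 17 of the 49 genes (6 of the 16 called) overlap exons of an antisense gene, and 9 have a named pseudogene, so their counts are less certain.

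Samples were grouped by the genotype label. Counts were filtered with filterByExpr (minimum count 10, minimum total count 15), scaled by TMM and tested over all 17420 genes with the quasi-likelihood F test of edgeR 4.0.16 (R 4.3.3) in its current form, with no covariate. P-values were Benjamini-Hochberg adjusted with a threshold of 0.05. The SE is the log2 fold change divided by the square root of F. P-values measure the spread between these libraries, which may be technical in the parental-labelled group. Deviations use log2 CPM with a prior count of 2. Gene order came from GENCODE 29 (GRCh38, not the authors' build) for 81.8% of tested genes and was used for neighbourhood only. Alternatives used limma 3.58.1 and DESeq2 1.42.0. The steps were also tested on simulated counts with the same spread in both groups. Because the KO-labelled libraries spread more widely, that run cannot show how the test behaves here. All 49 genes were named by their list. Outside them, the text names GPR52, RB1, SMAD4 and EGFR as checks and up to 4 called genes with the smallest p of each list, COL1A1 for its exception among markers and, after their values were seen, the other subunits of ORC and of polymerases delta and epsilon and the other E2F genes of the lists. The genes and lists were chosen with earlier results of these data known.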

Additional observations from a re-analysis of the deposited data

How the results depend on the processing

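Of 17 alternatives, the median log2 fold change of the 49 genes kept within -0.01 to 0.08 (0.01 to 0.06 when 1 library was left out). In a test against a 1.5-fold change, 1 gene was higher (TK1) and 1 lower (POLA1), where 11.0% of all tested genes were called. Leaving out 1 library gave 4 to 16 higher and 5 to 14 lower genes, with both highest counts without KO-labelled 3. There were 5, 4 and 5 higher genes without parental-labelled 1, 2 and 3. Over all tested genes, 52.6% were called without KO-labelled 3 and 27.7%, 27.3% and 29.6% without parental-labelled 1, 2 and 3. Without KO-labelled 3, 14 genes gained a call and none of the 16 was lost. MCM5 was then at -0.18, and over all single omissions between -0.18 and 0.19. Relative to neighbouring genes, MCM3 turned to 0.11, TYMS to -0.24, MCM7 to -0.34, PRIM2 to 0.30 and E2F3 to 0.26, since the neighbour median is subtracted. MCM7, PRIM2, E2F3, CDC6 (-0.42) and FEN1 (-0.32) gained a call there. The same 9 and 7 calls were made with DESeq2 size factors, library totals, upper quartile scaling, a filter of 10 CPM in 3 libraries and limma voom. No filter and DESeq2 each lost RPA3, DESeq2 added E2F1, and limma on log2(FPKM + 1) and log2(FPKM + 0.1) lost CCNE2 and added RFC4 and RPA2. None of the 16 calls held in all 17 alternatives, and 14 of the 33 other genes were called in none. POLA1 and TK1 were lost only relative to neighbouring genes, and GMNN, POLD1 and RFC5 only in the test against a 1.5-fold change. RPA3 kept its call in the fewest, 8 of 17. No paired analysis was possible because the labels of the groups share no replicate numbers. The SE of the genes not called was 0.06 to 0.21, so a missed call does not show that a gene was unchanged.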
